A study of Mus musculus with 9 samples.

Results

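C1qa, C1qb and C1qc encode the A, B and C chains of complement component C1q, and they are 3 of the 18193 genes that could be named on the arrays of this series. Every probe set annotated to one of the 3 symbols was taken, which gave 5 of 45101 probe sets: 1 for C1qa, 3 for C1qb and 1 for C1qc. The chains were chosen by their log2 values on these same arrays, because C1qb and C1qc were low in both groups kept on OP9-DL1 while most other macrophage genes were not. Their values over the 3 groups are therefore described without a test.

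C1q is assembled from its A, B and C chains, each with a collagen-like stalk and a globular head that binds antibody on a surface, apoptotic cells and other targets. Together with the proteases C1r and C1s it forms the C1 complex, which starts the classical pathway of complement. Unlike most complement proteins, which come from the liver, C1q is made mainly by macrophages and dendritic cells, and it helps phagocytes take up dying cells.

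LSK cells, the Lineage- Sca-1+ c-Kit+ fraction of wild-type C57/Bl6 mouse bone marrow that holds hematopoietic stem and early progenitor cells, were grown for 3 days on OP9 stroma, and the cells that had not attached were collected. The 3 groups, with 3 arrays each, were OP9-DL1 with 1 µM Compound E, OP9-DL1 alone and OP9-GFP. OP9-DL1 expresses the Notch ligand Delta-like 1, OP9-GFP is the control feeder, and Compound E inhibits γ-secretase, the enzyme that releases the active part of a ligand-bound Notch receptor. OP9 is a stromal line derived from op/op mice, which lack functional M-CSF, the growth factor of macrophages. OP9-DL1 and OP9-GFP are different feeder lines, and no vehicle is named for the groups without Compound E. In the comparison of OP9-DL1 with Compound E against OP9-GFP, the effects of feeder line, ligand and drug cannot be told apart. Likewise, OP9-DL1 against OP9-GFP does not separate ligand from feeder line. Compound E against OP9-DL1 does not separate the drug from any vehicle. The labels do not say whether the 3 arrays of a group stand for separate mice or cultures, so the spread between them may be technical.

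The values were log2 expression values, and the number of arrays limits their precision. Array medians ran from 4.78 to 4.94, and 21.9% of genes had exactly equal values, to the last deposited digit, on at least 2 arrays of a group, which narrows their spread. Values up to 3.64, the highest of 27 control probe sets for bacterial transcripts on any array, are called background here. The stem and progenitor markers Kit and Cd34 were well above it, with means of 8.14, 10.22 and 8.94 for Kit and of 10.90, 11.00 and 11.35 for Cd34 with Compound E, on OP9-DL1 and on OP9-GFP. All 8 measured stem and progenitor markers of 10 listed were above background in at least 1 group.

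The 3 genes lie side by side on mouse chromosome 4 in the order C1qb, C1qc and C1qa, with no other gene of the RefSeq table (GRCm38.p6) between them. The sequence around the start of C1qb and of C1qc is shown, and none was available for C1qa. Each window holds 250 bases before and 50 bases after the start, read 5′ to 3′ on the gene's own strand, from RefSeq on GRCm38.p6. The windows are chr4:136886151-136886450 for C1qb and chr4:136892865-136893164 for C1qc, both on the minus strand. Capitals mark matches, on either strand, to the motifs searched.
C1qb: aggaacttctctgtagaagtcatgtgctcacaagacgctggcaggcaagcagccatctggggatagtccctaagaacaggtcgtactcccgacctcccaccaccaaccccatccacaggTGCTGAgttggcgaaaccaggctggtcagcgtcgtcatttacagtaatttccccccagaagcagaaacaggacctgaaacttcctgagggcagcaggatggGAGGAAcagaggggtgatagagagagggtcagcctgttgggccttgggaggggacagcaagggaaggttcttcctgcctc
C1qc: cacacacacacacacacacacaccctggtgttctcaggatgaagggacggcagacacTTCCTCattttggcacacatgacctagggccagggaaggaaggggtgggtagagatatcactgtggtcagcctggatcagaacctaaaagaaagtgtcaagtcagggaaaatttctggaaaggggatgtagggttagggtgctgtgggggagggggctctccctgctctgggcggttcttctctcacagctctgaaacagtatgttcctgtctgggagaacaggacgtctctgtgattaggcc
The motifs were TGCTGA, the core bound by MAF proteins, GAGGAA, a core bound by ETS factors such as PU.1, GTGGGAA, bound by the Notch partner RBPJ, and the TATA box core TATAAA. C1qb held TGCTGA from base -131 to -126 and GAGGAA from -30 to -25, counted from the start. C1qc held GAGGAA on the other strand, printed as TTCCTC, from -193 to -188. Neither window held GTGGGAA or TATAAA in either orientation. Of 32851 such windows, 19.5% held TGCTGA, 28.3% GAGGAA, 6.38% GTGGGAA and 13.6% TATAAA, and none of the matches overlap each other. A match is a run of letters and not a measured binding site.

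C1qb was about 5-fold lower on OP9-DL1 than on OP9-GFP, with or without the inhibitor. The probe set that stood for it, 1437726_x_at, read 6.98, 6.69 and 6.71 on OP9-DL1 with Compound E, 6.91, 6.90 and 7.21 on OP9-DL1 and 9.35, 9.40 and 9.31 on OP9-GFP (log2 levels). All 6 arrays from OP9-DL1 lay below all 3 from OP9-GFP, and the arrays with and without Compound E overlapped. The means were 6.79 ± 0.17 with Compound E, 7.01 ± 0.18 on OP9-DL1 and 9.36 ± 0.04 on OP9-GFP (SD, n = 3 each). OP9-DL1 was thus lower than OP9-GFP by a log2 difference of -2.35 (5.09-fold lower), and OP9-DL1 with Compound E by -2.56 (5.90-fold lower). Compound E minus OP9-DL1 was -0.21, close to the SD of either group.

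The other C1qb probe sets differed between the groups in the same way. Probe set 1417063_at read 4.89, 4.90 and 4.89 with Compound E, 4.87, 4.85 and 5.13 on OP9-DL1 and 7.42, 7.32 and 7.29 on OP9-GFP. Probe set 1434366_x_at read 6.33, 6.30 and 6.02 with Compound E, 6.25, 6.07 and 6.48 on OP9-DL1 and 8.59, 8.66 and 8.57 on OP9-GFP. In both, the OP9-GFP arrays stood above all others, and the arrays with and without Compound E overlapped. The differences were -2.39 and -2.34 for OP9-DL1 minus OP9-GFP, -2.45 and -2.39 for Compound E minus OP9-GFP, and -0.06 and -0.05 for Compound E minus OP9-DL1. Over the 9 arrays the 3 probe sets correlated with each other at r of 0.995 to 0.996. The x in a probe set name marks probes that may also match other transcripts, and the probe set without it moved by as much as those with it.

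C1qc had the same order of groups as C1qb. Its probe set, 1449401_at, read 4.01, 4.05 and 4.48 with Compound E, 4.44, 4.61 and 4.60 on OP9-DL1 and 6.98, 6.87 and 6.57 on OP9-GFP. The OP9-GFP arrays were again above the other 6, which were dim but above background, and 1 Compound E array lay within the range of OP9-DL1. The means were 4.18 ± 0.26 with Compound E, 4.55 ± 0.09 on OP9-DL1 and 6.81 ± 0.21 on OP9-GFP (SD, n = 3 each). The difference was -2.26 for OP9-DL1 minus OP9-GFP (4.79-fold lower), -2.63 for Compound E minus OP9-GFP (6.18-fold lower) and -0.37 for Compound E minus OP9-DL1. For a gene this dim the log2 difference depends on the scale: with an offset of 32 added to each linear value, OP9-DL1 minus OP9-GFP was -1.38 and Compound E minus OP9-GFP was -1.52.

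C1qa was at background on every array, so the array gave no measure of the A chain. Its only probe set, 1417381_at, read 3.07, 2.97 and 2.95 with Compound E, 2.76, 3.12 and 3.08 on OP9-DL1 and 3.11, 3.07 and 3.33 on OP9-GFP. All groups overlapped, and none of the values passed 3.64. The means were 3.00 ± 0.06, 2.99 ± 0.20 and 3.17 ± 0.14 in the same order (SD, n = 3 each). With no signal in any group, the probe set shows neither a difference nor its absence for C1qa.

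The 3 values of C1qb and of C1qc on OP9-DL1 did not overlap those on OP9-GFP and were lower, which held for 23.0% of all genes. With Compound E they were likewise wholly below OP9-GFP, which held for 15.0% of all genes. Since this pattern chose the chains, nothing is read from these shares. A log2 mean at least 2 below OP9-GFP in both groups on OP9-DL1 was found for 2 of the 18193 genes, C1qb and C1qc. This step of 2 was set after the values were seen, and both differences use the same OP9-GFP arrays. Just outside it was Ctnnd2, a catenin of the delta family, at -1.96 for OP9-DL1 and -2.50 for Compound E. These are RNA values of all the collected cells together, which were those that had not attached. Fewer cells of a type among the cells collected and less RNA per cell cannot be told apart.

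**Figure D1:**
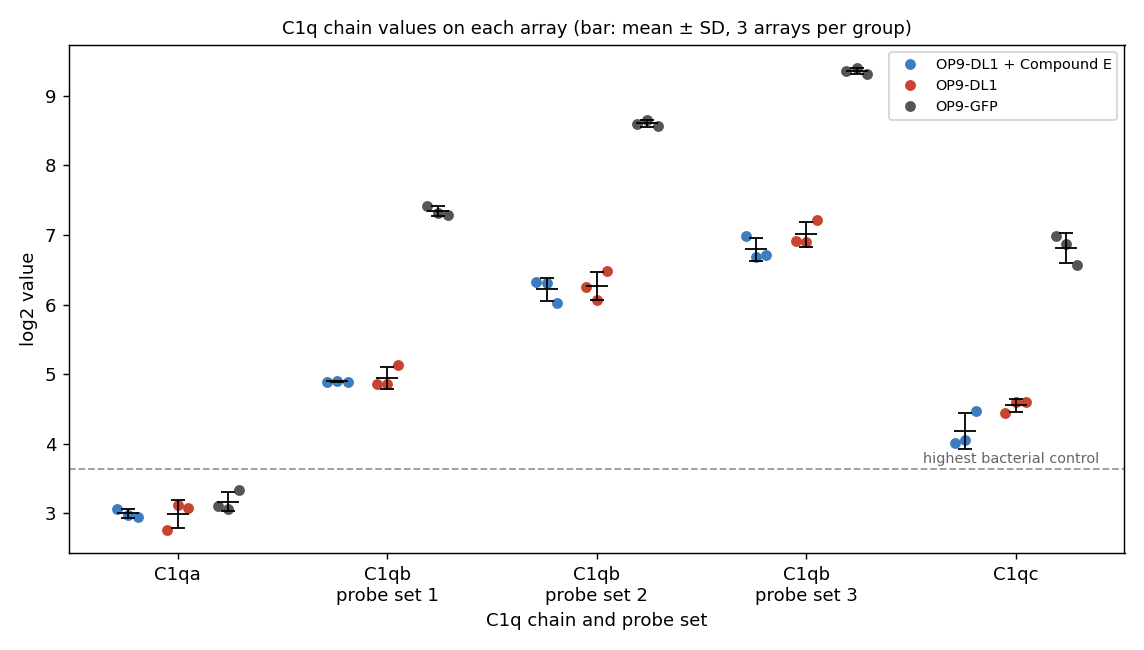
Log2 value of each C1q probe set (x axis) on each of 9 arrays (points), with the mean ± SD of 3 arrays per group; the dashed line is the highest bacterial control value, 3.64. C1qb and C1qc lie higher on OP9-GFP than in both groups on OP9-DL1, by differences of -2.26 to -2.63 for C1qc and for C1qb probe set 3, while C1qa stays under the line.

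The macrophage genes listed beside the chains set their pattern in context. OP9-DL1 was lower than OP9-GFP for 25 of 34 and higher for 1 at a limma adjusted p under 0.05, with a median log2 difference of -0.72. Among all 18193 genes 16.7% were lower and 15.9% higher, with a median of -0.02. Compound E was higher than OP9-DL1 for 25 of the 34 and lower for 2 (median 0.91), where 25.1% of all genes were higher and 21.6% lower (median 0.08). Against OP9-GFP, cultures with Compound E were higher for 12 and lower for 4 of the 34 (median 0.09), or 16 and 2 after centring on the median, where 12.1% of all genes were higher and 10.6% lower (median 0.05). The list was drawn up with earlier results of these arrays known.

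Gpnmb, a glycoprotein of lysosome-rich macrophages, had means of 11.17 ± 0.07 with Compound E, 6.58 ± 0.12 on OP9-DL1 and 11.14 ± 0.03 on OP9-GFP (SD, n = 3 each). It fell on OP9-DL1 by 4.56 ± 0.06 on the log2 scale (SE, limma adjusted p = 1.97e-16), and Compound E minus OP9-GFP was 0.03 ± 0.06 (limma adjusted p = 0.752). Apoe, the lipid carrier apolipoprotein E, averaged 9.24 ± 0.16 with Compound E, 7.61 ± 0.10 on OP9-DL1 and 9.23 ± 0.10 on OP9-GFP. Its level fell on OP9-DL1 by 1.61 ± 0.09 (limma adjusted p = 3.19e-10), with a difference between Compound E and OP9-GFP of 0.01 ± 0.09 (limma adjusted p = 0.947). Both genes had like means with Compound E and on OP9-GFP, whereas C1qb and C1qc with Compound E were near their OP9-DL1 means. The chains were chosen for differing from most other macrophage genes in this way, so nothing is read from the contrast.

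Other listed macrophage genes were higher with Compound E than on OP9-GFP. The 4 with the largest such difference were the heme oxygenase gene Hmox1 (0.69), the macrophage surface marker Adgre1, also known as F4/80 (0.64), the high-affinity IgG receptor gene Fcgr1 (0.56) and the scavenger receptor gene Msr1 (0.53). All 4 passed the test in that comparison, with limma adjusted p-values of 2.98e-07, 4.94e-05, 1.61e-05 and 6.08e-05. On OP9-DL1 the same 4 genes were below OP9-GFP, with differences of -0.55, -2.21, -3.38 and -3.50, all called.

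At the other end of the list were Cd163, Mrc1, Gpr34 and Aif1, with Compound E minus OP9-GFP at -1.68, -1.21, -0.26 and -0.25. The means with Compound E were at least 1 below OP9-GFP for 2 of the 34, Cd163 and Mrc1. Mrc1, the mannose receptor, read 8.34, 8.54 and 8.59 with Compound E, 6.01, 6.17 and 6.16 on OP9-DL1 and 9.68, 9.66 and 9.76 on OP9-GFP. Its 3 groups were fully separated, with Compound E in between: Compound E minus OP9-DL1 was 2.38 ± 0.08 (SE, limma adjusted p = 1.09e-12) and Compound E minus OP9-GFP -1.21 ± 0.08 (limma adjusted p = 6.47e-08). Cd163, the hemoglobin scavenger receptor, read 4.70, 4.45 and 4.14 with Compound E, 5.68, 5.81 and 6.13 on OP9-DL1 and 5.69, 6.36 and 6.30 on OP9-GFP. It was low with Compound E alone: the difference was -1.44 ± 0.19 from OP9-DL1 (limma adjusted p = 9.74e-06) and -1.68 ± 0.19 from OP9-GFP (limma adjusted p = 1.14e-05), while OP9-DL1 and OP9-GFP overlapped (limma adjusted p = 0.411). With the offset of 32 the first 2 differences were -0.76 and -0.92. Neither gene had like low values in both groups on OP9-DL1, the pattern for which C1qb and C1qc were chosen.

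The summed linear level of the 34 macrophage genes ran from 81632 to 87335 over the Compound E arrays, 42311 to 43369 on OP9-DL1 and 74959 to 77868 on OP9-GFP. The sum was therefore not lower with Compound E than on OP9-GFP. A sum of linear values is set mostly by the brightest genes and need not hold for each gene of the list. C1qb and C1qc were chosen for differing from other macrophage genes, so no contrast with them is drawn from the sum.

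**Figure D2:**
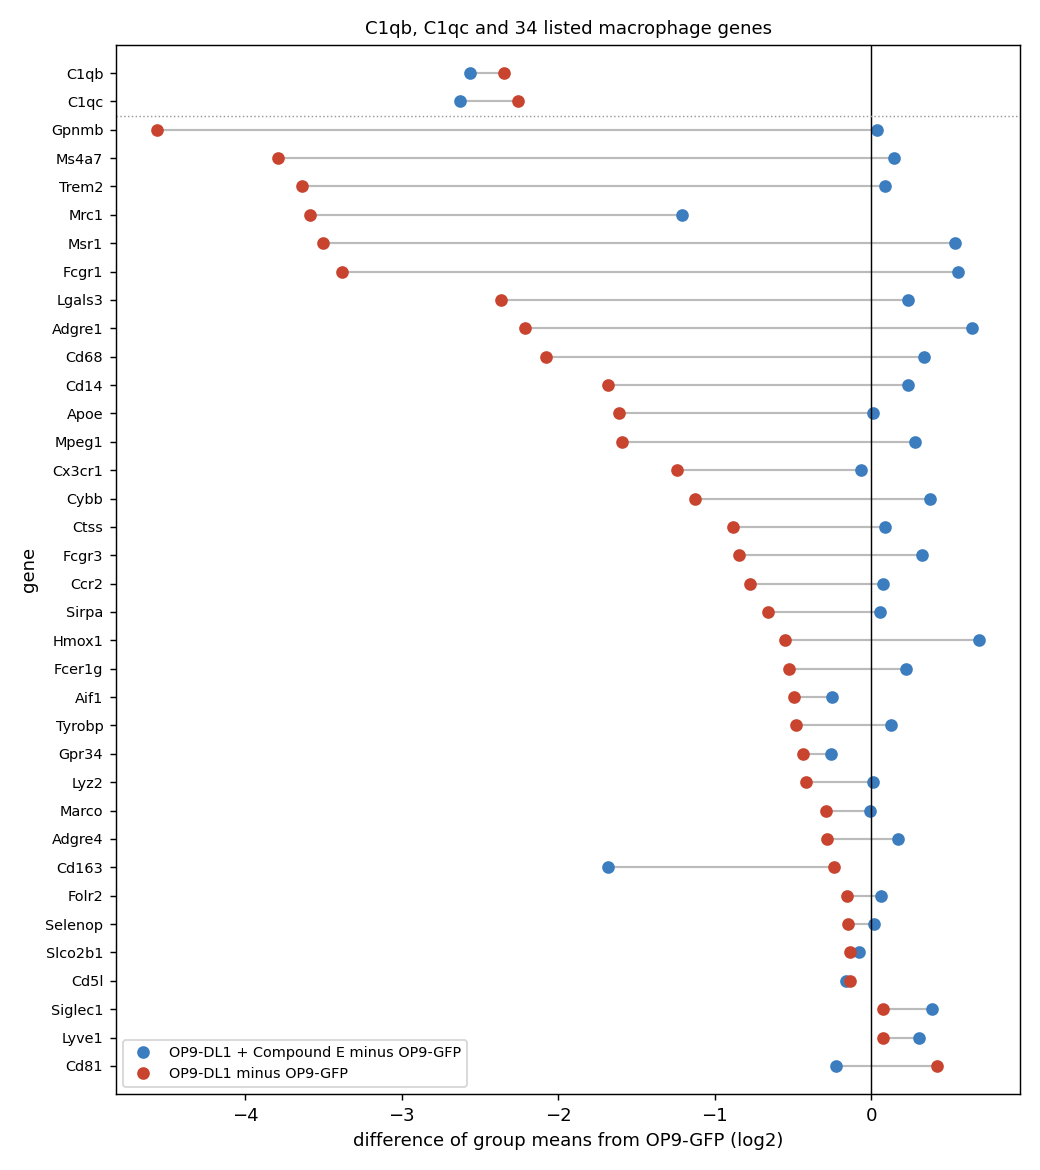
Difference of each group's mean from the OP9-GFP mean (x axis, log2) for C1qb, C1qc and the 34 listed macrophage genes (rows), for OP9-DL1 with Compound E and OP9-DL1; the line at 0 is OP9-GFP. C1qb and C1qc are at -2.35 and -2.26 for OP9-DL1 and at -2.56 and -2.63 with Compound E. The macrophage genes with Compound E lie between -1.68 (Cd163) and 0.69 (Hmox1). C1qb and C1qc were chosen for this contrast.

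Some markers of other cell types differed between the groups too. The 10 megakaryocyte markers summed to 6521 to 6830 on the Compound E arrays, 23644 to 23846 on OP9-DL1 and 9093 to 9187 on OP9-GFP, and all 10 were higher on OP9-DL1 than on OP9-GFP. The 12 stromal feeder markers, 2 of them at background, summed to 13761 to 14434 with Compound E, 18491 to 18837 on OP9-DL1 and 14063 to 14404 on OP9-GFP, with 7 higher and 0 lower on OP9-DL1 than on OP9-GFP. The 11 measured dendritic cell markers, 2 at background, summed to 4397 to 4729 with Compound E, 3989 to 4229 on OP9-DL1 and 4548 to 4747 on OP9-GFP, with 4 higher and 3 lower on OP9-DL1, or 3 and 4 after centring on the median. In the same comparison 6 of 11 measured neutrophil markers were higher and 5 lower, and 7 of 9 mast cell markers higher and 1 lower. Of 8 measured T cell markers 6 were higher and 0 lower, and of 7 B cell markers 1 was higher and 1 lower. Among all genes 15.9% were higher and 16.7% lower on OP9-DL1 than on OP9-GFP. Stromal and dendritic sums with Compound E overlapped those on OP9-GFP, and the megakaryocyte sum with Compound E was below both other groups. Their part in the C1q values was not tested.

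C1q acts with other complement proteins, of which 45 of 56 listed were measured and 16 were at background in all groups. OP9-DL1 was higher than OP9-GFP for 12 and lower for 8 of the 45 (44.4%, beside 32.6% of all genes). Compound E was higher than OP9-DL1 for 11 and lower for 13 (53.3%, beside 46.7%), a split that became 19 higher and 10 lower after centring the arrays on their medians. Compound E was higher than OP9-GFP for 11 and lower for 7 (40.0%, beside 22.7%). The medians were 0.04, 0.10 and 0.10, beside -0.02, 0.08 and 0.05 for all genes. None of the 45 had means at least 2 below OP9-GFP in both groups on OP9-DL1. Among all 18193 genes only C1qb and C1qc did, so nothing is read from this.

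C1s1 and C1ra, the partners of C1q in the C1 complex, were not called on OP9-DL1 against OP9-GFP. C1s1, which encodes C1s, read 6.94, 6.65 and 6.64 with Compound E, 7.33, 7.34 and 7.43 on OP9-DL1 and 7.44, 7.44 and 7.44 on OP9-GFP. The arrays with Compound E were below all others, by -0.62 ± 0.10 from OP9-DL1 (SE, limma adjusted p = 7.15e-05) and by -0.70 ± 0.10 from OP9-GFP (limma adjusted p = 0.000102). OP9-DL1 minus OP9-GFP was -0.08 ± 0.10 (limma adjusted p = 0.655). C1ra, which encodes C1r, averaged 7.30 ± 0.06 with Compound E, 7.55 ± 0.08 on OP9-DL1 and 7.50 ± 0.09 on OP9-GFP. Its difference between Compound E and OP9-DL1, -0.25 ± 0.09, had a limma adjusted p of 0.0284, which became 0.241 with the arrays centred on their medians and was not under 0.05 without OP9-DL1 replicate 3 (0.108) or Compound E replicate 1 (0.0642) or 3 (0.0618).

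Of the 11 measured classical and lectin pathway genes, 4 were higher and 0 lower on OP9-DL1 than on OP9-GFP, so that 36.4% were called, near the 32.6% of all genes. Among them were Fcnb, a ficolin that recognises sugars (0.63 ± 0.07, SE, limma adjusted p = 1.12e-06), and Masp1, a lectin pathway protease (1.15 ± 0.11, limma adjusted p = 5.43e-07). Masp1 has 5 probe sets, and averaging them gave 0.55. Masp2, the protease that acts with mannose-binding lectin, was lower with Compound E than on OP9-DL1 by a difference of -1.17 ± 0.19 (limma adjusted p = 6.21e-05), or -0.54 with its 2 probe sets averaged and -0.62 with the offset of 32. Compound E against OP9-DL1 gave 2 higher and 5 lower in this list (63.6%, beside 46.7% of all genes), and 3 of each after centring on the median.

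Cfp, or properdin, a stabiliser of the alternative pathway convertase that leukocytes make, is the complement gene whose OP9-DL1 difference was nearest to that of C1qb. It read 11.58, 11.64 and 11.49 with Compound E, 9.09, 9.10 and 9.23 on OP9-DL1 and 11.66, 11.68 and 11.49 on OP9-GFP. The OP9-DL1 arrays were far below both other groups, which overlapped. On OP9-DL1 it fell by 2.47 ± 0.06 relative to OP9-GFP (SE, limma adjusted p = 4.36e-14), and Compound E minus OP9-GFP was -0.04 ± 0.06 (limma adjusted p = 0.696). With its 2 probe sets averaged, Cfp was -1.60 from OP9-GFP on OP9-DL1. Compound E minus OP9-GFP was near 0 for Cfp and -2.56 for C1qb. As C1qb was chosen for its low values there, nothing is read from this contrast.

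The 12 measured regulators, which protect cells from complement, had 7 genes at background, and 3 were higher and 0 lower on OP9-DL1 than on OP9-GFP (25.0% called, beside 32.6% of all genes). These were Cd55, which speeds the decay of convertases (1.97 ± 0.12, SE, limma adjusted p = 1.15e-09), Cd59a, an inhibitor of the membrane attack complex (1.25 ± 0.17, limma adjusted p = 1.67e-05), and Clu, or clusterin (1.17 ± 0.06, limma adjusted p = 5.28e-11). All 3 were lower with Compound E than on OP9-DL1, with differences of -3.21 (-2.03 with the offset of 32), -1.88 and -1.32.

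Among 14 measured complement and C1q receptors, 4 were higher and 6 lower on OP9-DL1 than on OP9-GFP (71.4% called, beside 32.6% of all genes). C3ar1, the receptor of the C3a fragment, read 7.60, 7.45 and 7.45 with Compound E, 5.54, 5.39 and 5.65 on OP9-DL1 and 8.57, 8.64 and 8.62 on OP9-GFP. Its groups were fully separated, with Compound E in between. Compound E minus OP9-DL1 was 1.98 ± 0.10 (SE, limma adjusted p = 5.48e-11), and Compound E minus OP9-GFP was -1.11 ± 0.10 (limma adjusted p = 7.14e-07). C5ar1, the receptor of C5a, had a mean of 9.53 with Compound E, 7.10 on OP9-DL1 and 9.04 on OP9-GFP. All 3 of its differences were called, and OP9-DL1 minus OP9-GFP was -1.94, or -1.03 with its 2 probe sets averaged. The integrin chains of complement receptors moved apart from each other: Itgam minus its OP9-GFP level was -1.10 on OP9-DL1 (-0.63 with the offset of 32) and Itgb2 -0.81, whereas Itgax was 4.03 higher on OP9-DL1, all called.

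Genes of proteins described as C1q receptors or binding partners moved in both directions. Lrp1, an endocytic receptor that takes part in the uptake of dying cells, averaged 10.84 ± 0.07 with Compound E, 8.70 ± 0.09 on OP9-DL1 and 10.46 ± 0.02 on OP9-GFP (SD, n = 3 each), a fall on OP9-DL1 of 1.76 ± 0.06 (SE, limma adjusted p = 1.17e-12). Calr, or calreticulin, which binds C1q on cell surfaces, was not called on OP9-DL1 against OP9-GFP (0.15 ± 0.06, limma adjusted p = 0.0989), but was called after quantile normalization (0.16) and with its probe sets averaged (0.24). C1qbp, which binds the globular heads, was lower with Compound E than on OP9-DL1 (-0.45 ± 0.04, limma adjusted p = 4.93e-08). Lair1, an inhibitory collagen receptor that also binds C1q, was 0.50 ± 0.08 higher on OP9-DL1 than on OP9-GFP (limma adjusted p = 5.32e-05), and Scarf1, a scavenger receptor that binds C1q on dying cells, 0.93 ± 0.10 higher (limma adjusted p = 2.24e-06). Cd93, once described as a C1q receptor, differed by -0.34 ± 0.05 between OP9-DL1 and OP9-GFP (limma adjusted p = 1.58e-05).

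**Figure D3:**
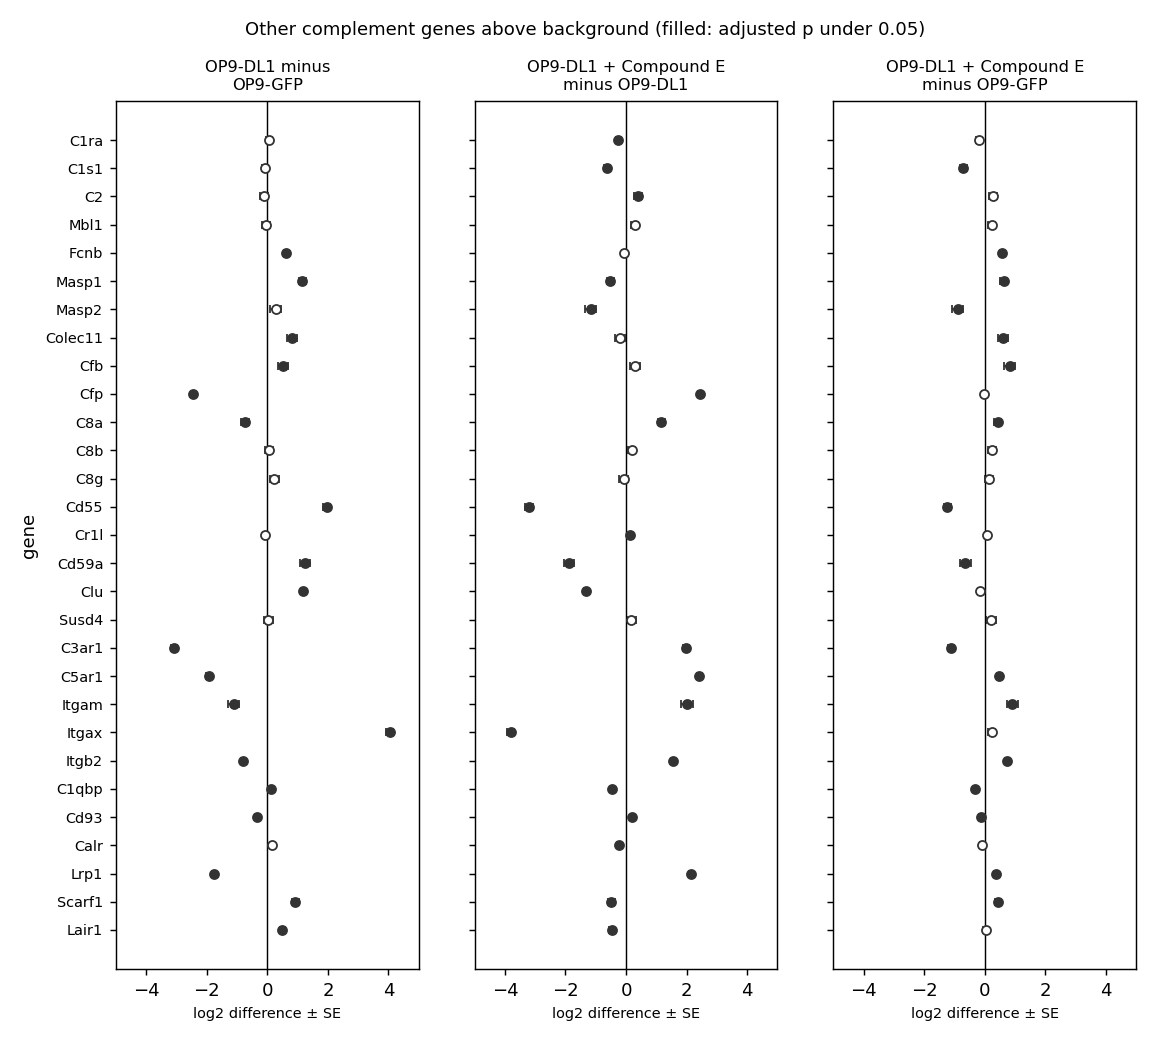
Log2 difference ± SE from the limma model (x axis) for the 29 complement genes above background in at least 1 group (rows), in the 3 comparisons (panels); filled points have an adjusted p under 0.05. C1s1 and C1ra lie near 0 on OP9-DL1 against OP9-GFP, and Cfp is at -2.47 there and at -0.04 with Compound E against OP9-GFP.

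The C1q domain is shared with secreted proteins outside complement, such as adiponectin. Of 23 measured members of this family 13 were at background, 4 were higher and 1 lower on OP9-DL1 than on OP9-GFP (21.7% called, beside 32.6% of all genes). The higher ones included Mmrn1, a platelet and endothelial multimerin (1.79 ± 0.07, SE, limma adjusted p = 7.41e-12), Col8a1, a short-chain collagen (4.53 ± 0.14, limma adjusted p = 4.19e-13), and Adipoq, or adiponectin (2.19 ± 0.20, or 1.39 with the offset of 32, limma adjusted p = 1.52e-07). With a gene's probe sets averaged, Mmrn1 was 1.03 and Col8a1 2.09 higher. The lower one was Emilin2, an extracellular matrix glycoprotein (-0.74 ± 0.04, limma adjusted p = 1.05e-09). Compound E against OP9-DL1 gave 3 higher and 5 lower members (34.8%, beside 46.7% of all genes), and 8 higher and 5 lower after centring on the median.

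The genes whose log2 values were most like those of C1qb over the 9 arrays were sought among 1933 genes whose group means spanned at least 1 and whose highest group mean exceeded background. C1qc had the highest Pearson r with C1qb (0.982), followed by Cav1 (0.974), St8sia1 (0.970), Hdac9 (0.970) and Sncg (0.968). For C1qc the list was C1qb (0.982), Ctnnd2 (0.977), Insyn2a (0.974), Anxa8 (0.963) and Hdac9 (0.948). The 9 points fall into 3 groups of 3 arrays, so r mainly reflects the group means.

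Cav1, the caveolar coat protein caveolin 1, averaged 4.92 with Compound E, 5.12 on OP9-DL1 and 6.22 on OP9-GFP. Hdac9, a class II histone deacetylase, averaged 4.32 with Compound E, 4.20 on OP9-DL1 and 5.65 on OP9-GFP. Both were high on OP9-GFP alone, a pattern shared with the chains because the genes named here were chosen by r with them. Ctnnd2 averaged 4.57 with Compound E, 5.10 on OP9-DL1 and 7.06 on OP9-GFP, and Insyn2a 6.61, 6.76 and 8.03 in the same order. The other 3 had the same order of OP9-GFP above both groups on OP9-DL1: Sncg, or synuclein gamma, averaged 4.58, 4.57 and 6.19, St8sia1, a sialyltransferase, 3.56, 3.54 and 4.83, and Anxa8, an annexin, 4.26, 4.21 and 5.59. Both means of St8sia1 on OP9-DL1 were under the background limit of 3.64, so it entered the search through OP9-GFP alone and its lower levels are not measured.

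None of these 7 other genes is in the macrophage list, whose r with C1qb had a median of 0.325. Its highest values were 0.766 for Aif1, 0.701 for Mrc1 and 0.650 for Cd163. The chains were chosen because other macrophage genes differed from them, so a low r with this list follows from that choice. The list was also not held to the limits on span and background that the 1933 genes passed. C1qa, at background, had no close neighbour among the 1933 genes. Its highest r among them was 0.678 for Cav1, followed by Plagl1 and Ctnnd2 (both 0.644), Sgip1 (0.638) and Slc16a9 (0.629). Its r was 0.588 with C1qb and 0.531 with C1qc. Gpr34 of the macrophage list, outside the limits of the 1933, had an r of 0.828 with C1qa. As C1qa was at background, nothing is read from these values.

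**Figure D4:**
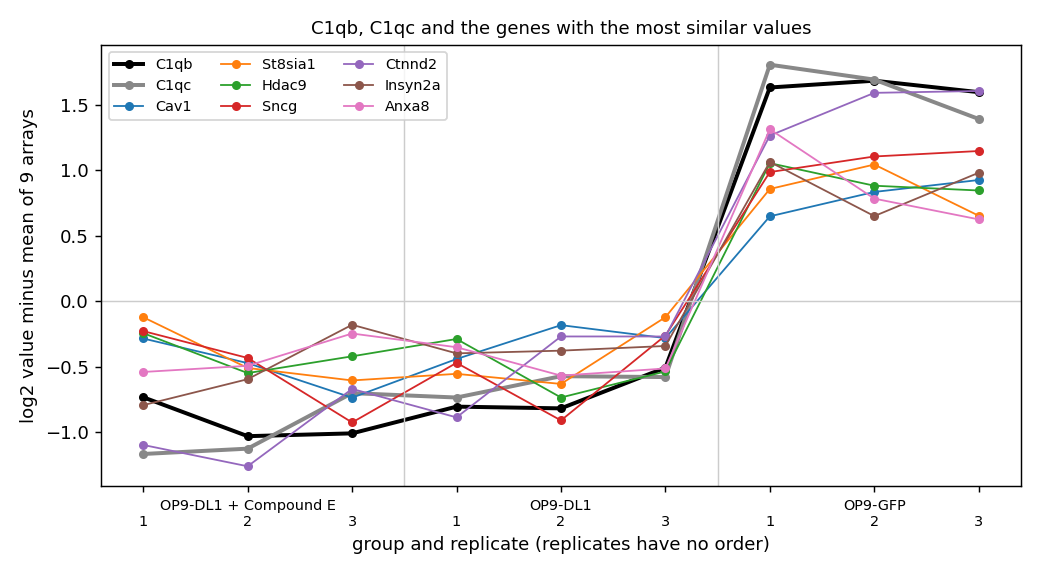
Log2 value minus the gene's mean over 9 arrays (y axis) for C1qb, C1qc and the 7 other genes named for likeness, on each array (x axis), with lines joining a gene's values for legibility only. All 9 genes are above their own mean on the 3 OP9-GFP arrays and below it on the 6 arrays from OP9-DL1. The 7 other genes were chosen by r with the chains on these same arrays, so the shared pattern follows from that choice.

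Transcription factors of macrophages were mostly lower on OP9-DL1 than on OP9-GFP, and mostly higher with Compound E than without it. Of 16 measured, 3 were higher and 11 lower on OP9-DL1 than on OP9-GFP (median -0.67), and 10 were higher and 3 lower with Compound E than on OP9-DL1 (median 0.77). Among all genes 15.9% were higher and 16.7% lower in the first comparison, and 25.1% higher and 21.6% lower in the second. Against OP9-GFP, Compound E gave 4 higher and 3 lower (median 0.04), or 6 and 2 after centring on the median, where 12.1% of all genes were higher and 10.6% lower. Maf, a factor of the family that binds the motif marked in the C1qb window, averaged 10.87 ± 0.11 with Compound E, 10.43 ± 0.04 on OP9-DL1 and 11.07 ± 0.03 on OP9-GFP (SD, n = 3 each). It fell on OP9-DL1 by 0.64 ± 0.06 (SE, limma adjusted p = 1e-07) on the probe set that stood for it and by 1.16 with its 6 probe sets averaged. Compound E minus OP9-GFP was -0.20 ± 0.06 for Maf (limma adjusted p = 0.0159). This was not called after centring on the median (0.138), with no intensity trend (0.0778), or without OP9-GFP replicate 3 (0.06) or Compound E replicate 2 (0.0639). With the 6 Maf probe sets averaged the difference was larger, at -0.35, and called (limma adjusted p = 0.00872). Spi1, which encodes PU.1, averaged 10.19 ± 0.08 with Compound E, 8.81 ± 0.03 on OP9-DL1 and 9.73 ± 0.01 on OP9-GFP, a difference of 0.46 ± 0.06 between Compound E and OP9-GFP (limma adjusted p = 2.78e-05).

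Nr1h3, which encodes the oxysterol receptor LXRα, read 6.42, 6.67 and 6.33 with Compound E, 5.31, 5.25 and 5.36 on OP9-DL1 and 6.54, 6.54 and 6.37 on OP9-GFP. The OP9-DL1 arrays were apart from the others, by -1.18 ± 0.12 from OP9-GFP (SE, limma adjusted p = 8.58e-07), or -0.76 with the offset of 32. Mitf and Id3 moved alike, with OP9-DL1 minus OP9-GFP at -1.56 and -1.39 and Compound E minus OP9-DL1 at 1.69 and 1.59, all called. Irf8, a factor of monocytes and dendritic cells, differed from OP9-GFP by -1.52 on OP9-DL1 and by -0.28 with Compound E, the second not called with its probe sets averaged (limma adjusted p = 0.0537). Spic, which drives splenic red pulp macrophages, ran the other way: it averaged 3.72 with Compound E, 8.09 on OP9-DL1 and 3.54 on OP9-GFP, with a limma adjusted p of 1.93e-13 for OP9-DL1 against OP9-GFP. All its OP9-GFP values were under the background limit of 3.64, so against that limit Spic was at least 21.8-fold higher on OP9-DL1.

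Of 11 growth factor and receptor genes of macrophages, 3 were higher and 5 lower on OP9-DL1 than on OP9-GFP, and 4 were higher and 0 lower with Compound E than on OP9-GFP. Among all genes 15.9% were higher and 16.7% lower in the first of these comparisons, and 12.1% higher and 10.6% lower in the second. Csf1r, the receptor of M-CSF, read 12.64, 12.61 and 12.53 with Compound E, 11.35, 11.19 and 11.38 on OP9-DL1 and 12.37, 12.37 and 12.36 on OP9-GFP. It was lowest on OP9-DL1 (-1.06 ± 0.05 from OP9-GFP, SE, limma adjusted p = 4.07e-11) and highest with Compound E. Csf1, which encodes M-CSF, averaged 7.28 ± 0.07 with Compound E, 7.80 ± 0.07 on OP9-DL1 and 7.28 ± 0.14 on OP9-GFP, with OP9-DL1 above OP9-GFP by 0.52 ± 0.09 (limma adjusted p = 0.000317), or 0.26 with its 4 probe sets averaged. The level of Csf1 RNA says nothing of whether functional protein was made.

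Genes for the uptake of apoptotic cells, a process in which C1q takes part, were lower on OP9-DL1 for 8 and higher for 1 of 17 measured (median -0.23). Compound E was higher than OP9-DL1 for 8 and lower for 2 (median 0.14), and against OP9-GFP it was higher for 4 and lower for 2 (median -0.05). The shares of all genes were 16.7% lower and 15.9% higher for OP9-DL1 against OP9-GFP, 25.1% higher and 21.6% lower for Compound E against OP9-DL1, and 12.1% higher and 10.6% lower for Compound E against OP9-GFP. Mertk, the receptor kinase through which macrophages engulf dying cells, read 5.66, 5.39 and 5.43 with Compound E, 4.87, 5.28 and 5.13 on OP9-DL1 and 6.68, 6.48 and 6.36 on OP9-GFP. Like C1qb and C1qc, Mertk lay below OP9-GFP in both groups on OP9-DL1. The difference was -1.42 ± 0.14 for OP9-DL1 (SE, limma adjusted p = 5.55e-07) and -1.02 ± 0.14 with Compound E (limma adjusted p = 7.88e-05). The groups on OP9-DL1 did not overlap each other, with Compound E higher by 0.40 ± 0.14 (limma adjusted p = 0.0297), a call lost without OP9-DL1 replicate 1 (0.143) or 3 (0.0535) or Compound E replicate 1 (0.109). Mertk was dim, and with the offset of 32 these differences were -0.89, -0.68 and 0.22.

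Stab1, a scavenger receptor for phosphatidylserine, read 6.67, 6.35 and 6.20 with Compound E, 4.30, 4.63 and 4.98 on OP9-DL1 and 6.96, 6.98 and 7.07 on OP9-GFP. Its groups did not overlap, with Compound E in between. It fell on OP9-DL1 by 2.37 ± 0.16 (SE, limma adjusted p = 5.67e-09), or by 1.49 with the offset of 32, and Compound E minus OP9-GFP was -0.60 ± 0.16 (limma adjusted p = 0.0145), which was not called without OP9-GFP replicate 3 (0.052) or Compound E replicate 3 (0.056). Itgb5, an integrin chain for bridged dying cells, differed from OP9-GFP by -1.59 on OP9-DL1 (called) and by 0.19 with Compound E (not called). Gas6, a ligand of Mertk, was 1.26 ± 0.09 higher on OP9-DL1 than on OP9-GFP (limma adjusted p = 1e-08), or 0.61 with its 2 probe sets averaged. The receptor was thus lower and its ligand higher on OP9-DL1.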

How the data were processed

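RNA was amplified from 25 ng, labelled with biotin and measured on 9 single-colour oligonucleotide arrays. The deposited table, made by the authors, gives log2 values of 45101 probe sets on every array. The submitters' processing notes name the tools MAS5 and GCRMA 2.4.1 without saying what each was for. The genome build behind the probe annotation is not given in the sources used. In the platform annotation 34945 probe sets had 1 symbol and 932 several, and symbols were updated through Entrez IDs. Where a gene had several probe sets, the one with the largest average over the 9 arrays stood for it.

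Limma 3.58.1 in R 4.3.3 was fitted to all 18193 genes and 9 arrays (lmFit, then eBayes with trend), with no covariate, filter or further normalization. Benjamini-Hochberg adjustment was made across all genes for each comparison, the threshold was 0.05, and "called", "rose" and "fell" refer to it. Groups and replicate numbers came from titles. The fit was tested on simulated data. The chains, the lists and the comparisons were chosen with earlier results of these data known. Named genes were the chains, list members called in a comparison and up to 4 others of a list, the 5 genes with the highest r for each chain, and the 4 macrophage genes at either end of the difference between Compound E and OP9-GFP. Listed genes without a named probe set were not analysed here. Alternatives were log2(value + 32), quantile normalization, median centring, averaging the probe sets of a gene, the replicate number as a block, no intensity trend, only the 6 arrays compared, only genes above background, and the omission of each array in turn.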

Additional observations from a re-analysis of the deposited data

How the results depend on the processing

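The low C1qb and C1qc values in both groups on OP9-DL1 kept their direction under quantile normalization, median centring, the mean of probe sets, log2(value + 32) and each array left out. With log2(value + 32), which shrinks dim genes by construction, OP9-DL1 minus OP9-GFP was -2.09 for C1qb and -1.38 for C1qc, and Compound E minus OP9-GFP was -2.26 for C1qb, -1.52 for C1qc and -0.036 for C1qa. Compound E minus OP9-DL1 was then -0.14 for C1qc. Leaving out 1 array gave OP9-DL1 minus OP9-GFP of -2.45 to -2.29 for C1qb, -2.38 to -2.17 for C1qc and -0.25 to -0.07 for C1qa. The range for Compound E minus OP9-GFP was -2.66 to -2.51 for C1qb, -2.78 to -2.54 for C1qc and -0.22 to -0.09 for C1qa, and for Compound E minus OP9-DL1 it was -0.31 to -0.11, -0.52 to -0.28 and -0.10 to 0.08. Genes called without 1 array numbered 5074 to 6268 for OP9-DL1 against OP9-GFP, 7372 to 8460 for Compound E against OP9-DL1 and 3059 to 4415 for Compound E against OP9-GFP, and complement genes 18 to 21, 20 to 24 and 13 to 17. The replicate number as a block gave 5755, 8295 and 3972 genes and 20, 23 and 17 complement genes. Arrays with the same number had correlations of their deviations from group means of -0.11 to 0.12, and those with different numbers -0.14 to 0.09, so the numbers were not taken as pairs. Centring on the median moved the median difference of all genes to 0.21 for Compound E against OP9-DL1 and 0.14 against OP9-GFP, and the share of higher among called genes to 73.7% and 78.2%, where it had been 53.8% and 53.4%. No count of calls over all genes or over complement genes moved by more than 1.5 times. For the named genes, 2478 values over the alternatives stayed on the same side of the threshold, 58 lost and 14 gained a call. Of the 2478, 2451 kept their sign, and the 27 that did not were not called.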
